A study of Mus musculus with 6 samples.

Results

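Bapx1 binding in fibroblasts was measured by chromatin immunoprecipitation and sequencing (ChIP-seq) of a V5-tagged Bapx1 protein in NIH3T3 cells, an immortal mouse line that was derived from embryonic fibroblasts. The cells overexpressed the tagged protein after transfection of its cDNA, and DNA bound by it was pulled down with a V5 antibody. The control was a pull-down of NIH3T3 cells with the same antibody, and the labels describe those cells both as transfected with the empty pcDNA6 vector and as wild type, and title the library as input. Each side was 1 library, so no replicate error could be computed, and the intervals given here are 95% intervals for counting error only. The 2 libraries belong to a series of 6, whose other libraries came from the vertebral column of embryonic day 12.5 (E12.5) mouse embryos. Of those, the S-peptide pull-down of embryos with a tagged Bapx1 allele and that of wildtype embryos without the tag, its control, were used for comparison. The binding sites were the peaks that the authors had called for the Bapx1 library against the V5 control with MACS, a program that looks for local excesses of sequenced DNA ends (tags). The deposited list held 23207 peaks, and 2 that lay inside Nkx3-2, the gene that encodes Bapx1, were left out because tags there can come from the transfected cDNA. Of the other 23205, 2 were mitochondrial, and 23203 on chromosomes 1 to 19 and X were described further.

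Bapx1 (Nkx3-2) is a homeodomain transcription factor of the NK family. It is known as a repressor that acts downstream of Sonic hedgehog in the sclerotome, the part of the somite that forms the vertebrae, where it promotes cartilage formation. Homeodomains bind short words of DNA, and the word described for Bapx1 is T(G/A)AGTG. Here TAAGTG is called the A form and TGAGTG the G form. On the other strand these words read CACTTA and CACTCA. The sites described here are those of a tagged and overexpressed factor in the chromatin of a fibroblast line.

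The sequences of some of the peaks with the smallest MACS p or the largest ratio of Bapx1 to control tags are shown because they hold the forms of the word, or lack them, in the ways described below. Each runs 30 bases to either side of the summit, the point of the peak with the highest tag pileup, on the plus strand of mm9, with every match to either form in capitals. The first 5 held between 2 and 5 matches, often at a regular spacing, the sixth lay near a promoter, the seventh and eighth were among the peaks with no control tag, and the last pair held neither form.

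Cdh23 intron, chr10:60157373-60157433: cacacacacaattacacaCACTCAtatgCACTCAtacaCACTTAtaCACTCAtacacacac
Akap12 intron, chr10:6031577-6031637: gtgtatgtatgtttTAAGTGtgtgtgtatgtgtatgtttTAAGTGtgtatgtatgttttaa
Fat3 intron, chr9:15922246-15922306: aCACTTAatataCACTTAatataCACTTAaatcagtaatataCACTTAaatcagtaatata
Rcan2 intergenic, chr17:43892756-43892816: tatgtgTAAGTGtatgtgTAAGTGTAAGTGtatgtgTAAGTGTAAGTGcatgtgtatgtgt
Ptprm intron, chr17:67330452-67330512: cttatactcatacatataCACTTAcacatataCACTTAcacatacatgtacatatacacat
Gxylt1 promoter region, chr15:93107201-93107261: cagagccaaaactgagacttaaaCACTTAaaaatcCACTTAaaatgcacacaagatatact
Tmprss15 intergenic, chr16:79349788-79349848: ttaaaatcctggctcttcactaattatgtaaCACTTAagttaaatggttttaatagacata
Zfhx3 intergenic, chr8:110945255-110945315: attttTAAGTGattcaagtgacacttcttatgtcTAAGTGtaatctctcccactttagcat
Nepn intron, chr10:52122140-52122200: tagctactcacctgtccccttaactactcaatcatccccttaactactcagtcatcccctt
Gng4 distal, chr13:13847541-13847601: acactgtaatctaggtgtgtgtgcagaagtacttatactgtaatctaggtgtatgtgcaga

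The Bapx1 library held 9124697 tags of 35 bases and the V5 control 13327426. Tags that repeated a position and strand made up 2.40% and 6.53%. They were dropped, which left 8901095 and 12453788 on chromosomes 1 to 19, X and Y. ChIP libraries hold no expression from which a fibroblast could be recognised. The check of the cell line was Cdkn2a, a tumour suppressor locus that NIH3T3 cells are known to have lost. It held 0 tags in the Bapx1 library and 2 in the control, where the chromosome mean predicted 75.3 and 106, and the count of 0 allows up to 3.98% of the expected number. In the embryo Bapx1 and wildtype control libraries the same locus held 201 and 184 tags, or 103% and 114% of the expected number.

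The gene that encodes the transfected factor stood apart in the Bapx1 library. The exons of Nkx3-2 (chr5:42152722-42155735) held 1819 Bapx1 tags and 379 control tags, a scaled ratio of 6.72 (6.01 to 7.52), while the intron between them held 13 and 10 tags, a ratio of 1.82 (0.737 to 4.63). With repeated tags kept, the exons held 12974 and 430 and the intron 35 and 13. Keeping 1 tag per position and strand limits how many tags 1713 bp can hold, so the exon ratio and its interval are capped. Scaled ratios divide the Bapx1 tags by the control tags after both libraries are set to the same number of tags on chromosomes 1 to 19, X and Y. A cDNA holds exons and no intron. The control library also held most of its tags in exons, with 379 tags in 1713 bp of exons and 10 in 1301 bp of intron, where the embryo control, a larger library, held 24 and 14. The labels give its cells as empty vector or wild type, and where the exon tags of either library came from was not tested.

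The 23203 peaks covered 9567127 bp, with a median length of 373 bp. They held 385772 Bapx1 tags, which was 4.33% of the library, and 89907 control tags, which was 0.722% of that library, a scaled ratio of 6.00 (5.96 to 6.05). A single peak held a median of 13 Bapx1 tags, with quartiles of 11 and 17 and a range of 8 to 2947, against a median of 2 control tags, and 2816 peaks (12.1%) held no control tag. Most peaks were therefore small. Because the peaks were called from these tags, the ratio describes the list and tests nothing. The median false discovery rate (FDR) in the MACS output was 0.58% and the highest 5.26%, and 22668 peaks stood at or below 5%. The 2 peaks nearest to the threshold, at −10log10 p of 50 and an FDR of 5.26%, were close to Ngef with 9 Bapx1 and 2 control tags and Gm16529 with 9 and 4.

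The summit is the point of highest pileup of shifted tags, so the order of the strands around it is set by how it was placed and is given as a description. Among the summits over 5 kb from a transcription start site (TSS), Bapx1 tags on the plus strand peaked 50 bp before the summit and those on the minus strand 50 bp after it. Of the 23203 peaks, 99.8% had Bapx1 tags on both strands within 200 bp, and 97.1% had between 20% and 80% of them on the plus strand. The Pip5k1b peak was an exception among the named peaks, with 66 plus and 9 minus tags. The control tags in the 10 kb around a summit numbered a median of 58, with quartiles of 47 and 70, against 50, with quartiles of 36 and 62, in 10-kb bins of the genome, so summits lay in regions with somewhat more control tags, and the part of this in the peak list was not tested.

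**Figure D1:**
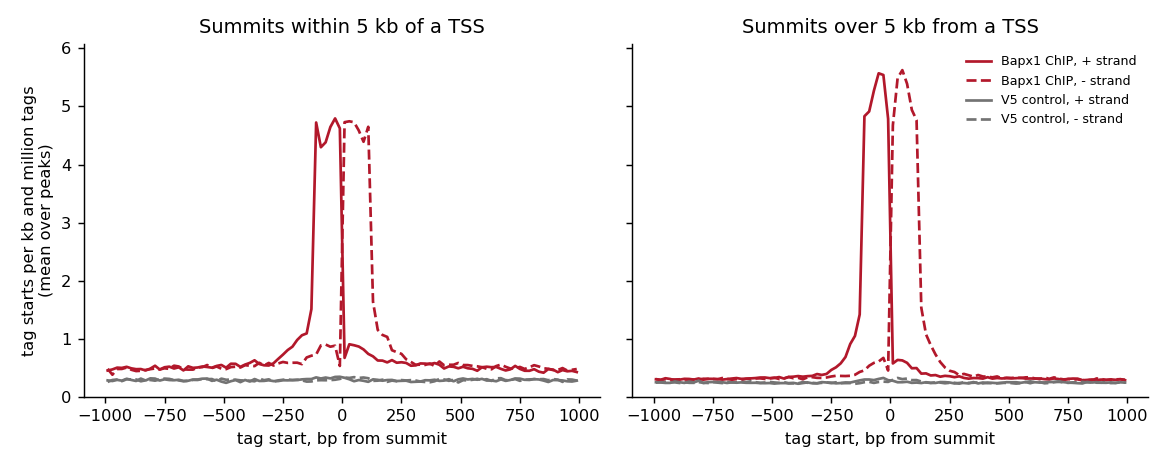
Mean tag starts per kb, scaled to the depth of the library (y axis) by distance from the summit in bp (x axis), for summits within 5 kb of a TSS (left) and farther away (right), with Bapx1 tags in red, V5 control tags in grey, the plus strand as solid and the minus strand as broken lines. Bapx1 tags form a pair of strand-shifted maxima on both sides of the summit, 50 bp before and 50 bp after it for the summits farther away, while the control stays nearly flat; the summits were called from these tags.

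An interval of chromosome 9 stood apart in both NIH3T3 libraries. Between 6500001 and 10400000 (3.9 Mb), the control held a median of 3604 tags per 100 kb, 7.37 times the genome median of 489, and the Bapx1 library 8.85 times its own median. The embryo wildtype control held 0.923 times its median there. The interval has 28 protein-coding genes, among them Yap1, the coactivator of the Hippo pathway, the apoptosis inhibitors Birc2 and Birc3, and the Mmp cluster of collagenases and stromelysins. It held 234 peaks, or 60 per Mb, with a ratio of 2.09 (2.05 to 2.12), and 147 of them (62.8%, 56.3 to 69.0) held the motif. DNA copy number was not measured, so a gain of copies and other sources of tags cannot be told apart here. Single 100-kb bins on chromosomes 1, 2, 7, 11 and 17 also held over 3 times the median, and the embryo control was high in them too, between 2.98 and 20.3 times its median. They held 4 peaks in all, one of them the peak with 2947 Bapx1 and 3254 control tags on chromosome 17 (39900001 to 40000000). Without all these intervals 22965 peaks remained, with 345866 Bapx1 and 61504 control tags and a ratio of 7.87 (7.80 to 7.94).

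**Figure D2:**
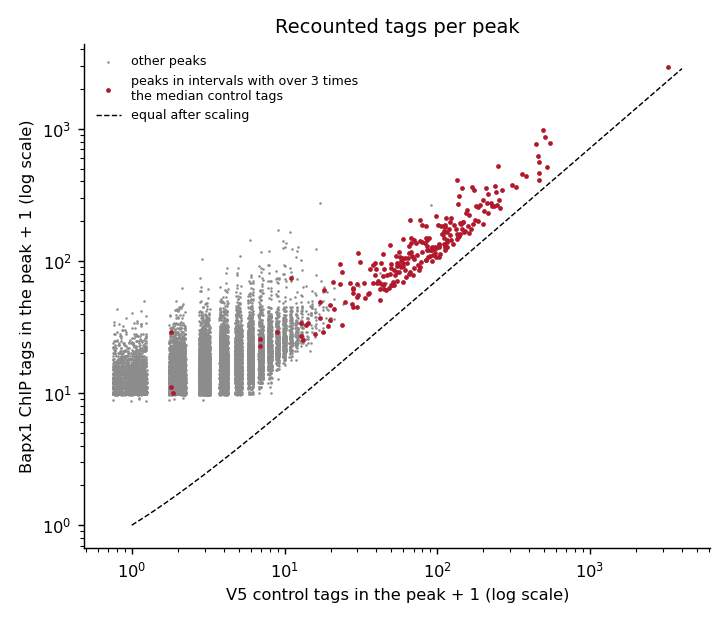
Bapx1 ChIP tags against V5 control tags in each of the 23203 peaks, with 1 added to each count and a small shift along both axes to separate points, both on log axes. Red points are the 238 peaks in intervals with over 3 times the median of control tags, grey points the other 22965, and the broken line marks equal tags after scaling; most red points lie at high counts on both axes, closer to the broken line than the grey ones.

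Bapx1 summits were found at promoters more often than control tags were, but most lay elsewhere. Promoter sites, within 5 kb of a TSS, numbered 5986 (25.8%, 25.2 to 26.4), where 18.8% of the control tags lay, 1.37 times their share. Another 6583 summits (28.4%) lay at 5 to 25 kb, where 31.2% of control tags lay. Beyond 25 kb there were 10634 summits (45.8%), with 8475 (36.5%) outside the gene of the nearest TSS, called distal intergenic although some lay in an intron of another gene, and 2159 (9.30%) inside it, called distal intragenic, against 40.6% and 9.46% of control tags. The excess at promoters came from the close range. Within 100 bp of a TSS lay 519 summits (2.24%), 2.99 times the 0.749% of control tags there, and the ratio fell over the distance bins to 2.17, 2.03, 1.69 and 1.29 and was 0.989 between 2.5 and 5 kb. From 5 kb on every bin was between 0.884 and 0.955.

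Within genes the summits were placed unevenly. Introns held 10760 summits (46.4%) against 42.2% of control tags, and 11462 (49.4%) lay between genes against 53.2%. The 5′ untranslated regions held 266 summits (1.15%), 3.18 times the 0.360% of control tags, while coding sequence held 142 (0.612%), 0.294 times the 2.08% of control tags. The 3′ untranslated regions held 312 (1.34%), close to the 1.25% of control tags.

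The classes had these ratios of tags in peaks, which describe the called peaks and test nothing. Outside the high-tag intervals, the ratio was 6.81 (6.71 to 6.92) for promoter peaks, 7.84 (7.71 to 7.97) at 5 to 25 kb, 8.71 (8.46 to 8.98) for distal intragenic and 8.72 (8.59 to 8.85) for distal intergenic peaks. Promoter peaks had the lowest value. Over all peaks, high-tag intervals included, the order was different, and the ratios were 5.09 for promoter, 6.33 at 5 to 25 kb, 5.31 for distal intragenic and 7.01 for distal intergenic peaks. Of the 2482 summits within 1 kb of a TSS, 817 (32.9%) lay in windows rich in CpG, and the ratio over the 1031 CpG-rich windows outside the high-tag intervals was 6.03 (5.83 to 6.24), against 3.51 over all 1038, which include the chromosome 17 peak.

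**Figure D3:**
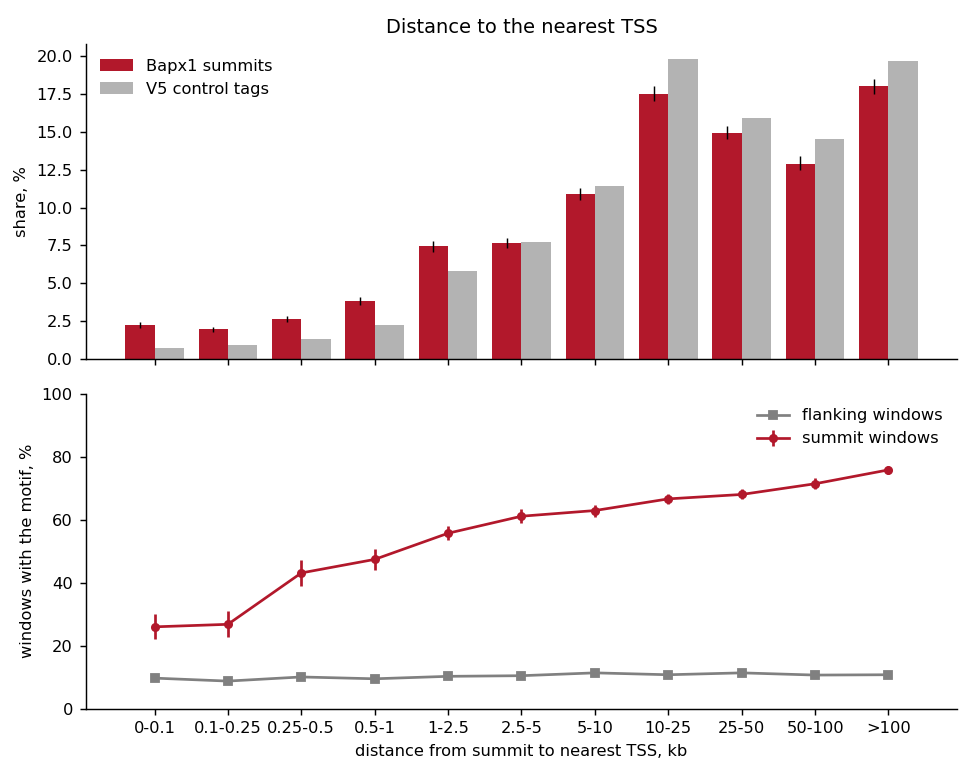
Share of Bapx1 summits (red bars, with exact 95% intervals) and of V5 control tags (grey bars) by distance to the nearest TSS in kb (top), and the share of summit windows (red) and flanking windows (grey) that hold either form of the motif in the same bins (bottom). Summits exceed control tags up to 2.5 kb, and the motif share rises from 26.0% within 0.1 kb to 75.8% beyond 100 kb while the flanks stay level.

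The Bapx1 word was at the centre of most peaks. Within 50 bp of the summit, 14945 of 23203 peaks (64.4%, 63.8 to 65.0) held at least one of the forms on either strand, against 10.7% (10.5 to 11) of windows of the same length, 101 bp, that lay 500 bp to either side. The difference was 53.7 percentage points (53 to 54.3). Sequence was not used to call the peaks, so the word was independent of the rule that chose them. Most of this was the A form, which was in 13237 windows (57.0%, 56.4 to 57.7) against 4.88% of flanks, 11.7 times as many. The G form was in 3513 (15.1%, 14.7 to 15.6) against 6.26% of flanks, 2.42 times as many. The A form alone was in 11432 windows, the G form alone in 1708, both in 1805 and neither in 8258. The word most tied to the fibroblast sites was therefore the A form, and the G form was the more frequent in the flanks.

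The matches lay close to the summits. The nearest match was a median of 10.5 bp from the summit, and 71.8% of nearest matches were within 20 bp. The A form had 11297 matches within 20 bp of a summit where its density 300 to 500 bp away predicted 513, 22.0 times as many. The G form had 2425 where 730 were predicted, 3.32 times as many. Both forms thus peaked at the summit, with a sharper maximum for the A form.

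**Figure D4:**
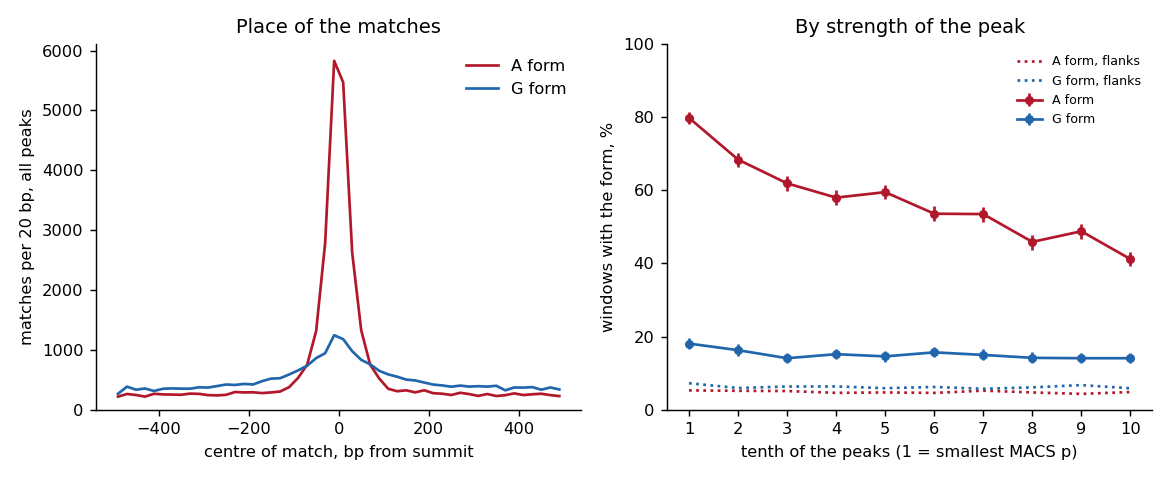
Left, number of matches per 20 bp over all peaks by distance from the summit in bp, for the A form (red) and the G form (blue). Right, share of summit windows with each form (points with exact 95% intervals) in 10 equal bins of the peaks by MACS p, with the flanks as dotted lines; the A form falls from 79.8% in the bin with the smallest p to 41.2% in the last, and the G form from 18.1% to 14.1%.

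Stronger peaks held the motif more often. The peaks were ordered by p and divided into 10 equal bins. In the bin with the smallest p, 84.4% (82.9 to 85.9) held either form, and 51.1% held several matches. In the last bin these shares were 50.2% (48.2 to 52.3) and 14.6%, a difference for either form of 34.2 points (31.6 to 36.7). The A form differed by 38.5 points (35.9 to 41.1) between these bins and the G form by 3.96 (1.84 to 6.07).

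Many windows held more than 1 match. There were 9163 windows (39.5%) with 1 match, 4453 (19.2%) with 2, 873 (3.76%) with 3 and 456 (1.97%) with 4 or more, and among flanks these were 9.76%, 0.791%, 0.131% and 0.0646%. Peaks with more matches held more tags. The median was 12 Bapx1 tags with 1 match, 14 with 2, 16 with 3 and 20 with 4 or more, and the scaled ratios were 5.62, 7.58, 7.80 and 8.53. Windows without a match had a median of 13 tags and a ratio of 5.44. Outside the high-tag intervals the step from 1 to 2 matches was smaller and that from none to 1 larger, with ratios of 6.76 (6.67 to 6.86) without a match, 8.22 (8.11 to 8.34) with 1, 9 (8.82 to 9.18) with 2, 9.69 (9.28 to 10.1) with 3 and 9.14 (8.71 to 9.58) with 4 or more.

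Among the 3633 windows with exactly 2 A forms, 53.9% held both on the same strand, 21.9% held them facing each other and 24.2% facing away. The 83 flanks with 2 A forms gave 56.6%, 14.5% and 28.9%. The most common arrangement was a repeat on the same strand at 11 bp from start to start, in 212 windows (5.84%), and 126 windows (3.47%) had a spacing of 10 bp. Of the 83 flanks, 5 (6.02%) and 2 (2.41%) had these spacings, too few to tell the summits from the flanks. Some of the windows were tandem repeats, as the Rcan2 and Fat3 sequences show. A window was called a tandem repeat where it matched itself at 70% or more of its bases after a shift of up to 40 bp. These were 1.26% of all summit windows and 1.24% of flanks, but 138 of the 456 windows with 4 or more matches (30.3%, 26.1 to 34.7), where the peaks' flanks had 3.18%. Among peaks at p of 1e-10 or below they were 3.02% (2.57 to 3.53), against 1.27% of those peaks' flanks. Peaks with tandem windows held a median of 19 Bapx1 tags, against 13 for the others. Without the tandem windows the share of summits with the motif was 64.2%.

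The motif was rarest at promoters. It was in 50% (48.7 to 51.3) of promoter windows, 65.2% at 5 to 25 kb, 71.4% of distal intragenic and 72.2% of distal intergenic windows, while the flanks stayed between 9.57% and 11.8%. Promoter windows differed from distal windows by −22.0 points (−23.5 to −20.5), and windows within 1 kb of a TSS, at 38.1% (36.2 to 40), by −34.0 points (−36.0 to −31.9). The distal intragenic and intergenic windows differed by −0.837 points (−3 to 1.26), an interval that contains 0. The A form moved with distance and was in 26.8% of windows within 1 kb and 66.2% beyond 25 kb, while the G form was in 14.5% and 14.6%. In bins of distance the share with either form rose from 26.0% (22.3 to 30) within 100 bp to 75.8% (74.5 to 77.1) beyond 100 kb. The median GC content, taken over 200 bp to either side of the summit, fell from 56.4% to 36.4%. In CpG-rich windows the share was 29.7% (26.9 to 32.6). Base composition moved with distance, and its part in the motif share was not tested.

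Single-base changes of the word were counted over all windows, of which 57.0% also held the intact A form, so an excess of a change need not mark a site of its own. Positions are counted from 1 at the 5′ end of TAAGTG. The change G6A, which gives TAAGTA, was 4.61 times as frequent at summits as in flanks, and G4T (TAATTG) and T1A (AAAGTG) were 2.82 and 2.70 times as frequent. Changes of the third base were near the background, with 0.870 for A3G, 1.09 for A3T and 1.19 for A3C, as was A2C with 1.01. The second base took G, as the G form shows (A2G, 2.42), and less so T (A2T, 1.81), which in the windows with neither form was 1.37 times as frequent as in their flanks (6.20% against 4.52%). The bases beside the A form were also uneven. A T stood before it in 59.5% of 8824 sites against 30.1% in flanks, and an A followed it in 11.8% against 28.8%. On the other strand the first of these reads as an A after CACTTA, as in the 4 matches of the Fat3 sequence.

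The 8-base words say the same at a finer scale, and were counted after the 6-base result was seen. The word with the largest excess was CCACTTAA, in 2717 windows (11.7%) against 0.291% of flanks, 40.3 times as many. ACCACTTA followed with 31.8 times, CACTTAAC with 31.0 and ACACTTAA with 29.1. Each holds CACTTA, the A form on the other strand. In distal windows the excess of CCACTTAA was 46.3 times.

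The 8258 windows with neither form were not without pattern. G6A of the A form was in 2060 of them (24.9%) against 5.35% of their flanks, 4.66 times as many, and T1A in 1709 (20.7%) against 7.28%, 2.84 times as many. Their leading 8-base word was GTACTTAA, in 652 windows (7.90%), 29.6 times the flanks, followed by AAGTACTT with 21.3 times. AAGTACTT is in the Gng4 sequence above, whose peak held 119 Bapx1 and 11 control tags. The Nepn sequence instead repeats ccccttaacta, and its peak held 164 and 10 tags.

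A second class of sequence in these windows was the AP-1 word TGANTCA, which is bound by dimers of the Jun and Fos families. It was in 1143 of the windows with neither form (13.8%, 13.1 to 14.6) against 3.31% of their flanks, a difference of 10.5 points (9.75 to 11.3), and in 685 of the windows with a form (4.58%) against 3.20%. Over all peaks it was in 1828 windows (7.88%) against 3.24%. The word overlaps a change of the G form, since TGAGTC is G6C of TGAGTG, and that change was in 1180 of the windows with neither form (14.3%) against 4.78%. At promoters without the motif the AP-1 word was in 11.7% against 3.09% of flanks, and at distal sites without the motif in 13.8% against 3.36%. Whether Bapx1 itself, a partner or open chromatin put these sites in the list was not tested.

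Other words moved little or were rare. The TEAD word GGAATG was in 5% of summit windows and 5.33% of flanks, the RUNX word TGTGGT in 6.06% and 7.24%, the ETS word CCGGAA in 1.09% and 1.02%, the CRE word TGACGTCA in 0.0819% and 0.0625%, the NFY word CCAAT in 14.4% and 14.5%, and the SP word GGGCGG in 1.76% and 1.87%, on either strand. The RUNX word was less frequent at summits by a difference of −1.18 points (−1.57 to −0.792). The CTCF motif was in 0.254% and 0.0927%, 2.74 times as many, a difference of 0.162 points (0.0961 to 0.239) that touches few peaks. Within 1 kb of a TSS the ETS word was in 5.80% of windows and 3.77% of flanks, a difference of 2.03 points (1.01 to 3.14).

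The strongest single peaks lay in introns and between genes. The peak with the smallest p (chr10:60157075-60157996) lay in an intron of Cdh23, a cadherin of hair cell bundles, 1.83 kb from a TSS, and held 272 Bapx1 and 16 control tags, a ratio of 23.8 (14.4 to 42.2), with 7 G forms and 1 A form. It was the one peak of the 10 with the smallest p in which the G form outnumbered the A form. An intron of Akap12, which encodes a scaffold for protein kinase A, held 171 and 8 tags at 48.6 kb, a ratio of 29.9 (14.8 to 70.4), with 4 A forms.

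An intron of Fat3, an atypical cadherin, held 144 and 5 tags at 160 kb, a ratio of 40.3 (16.9 to 126). A site 46.0 kb from Rcan2, a regulator of calcineurin, held 141 and 9 tags with 8 A forms, a ratio of 21.9 (11.2 to 48.9). The peak in Ptprm, a receptor tyrosine phosphatase, held 103 and 2 tags with 4 A forms, a ratio of 72.1 (19.4 to 603) whose upper bound was wide because of the few control tags. Sites near Agtpbp1 (137 and 9 tags), Fam170a (126 and 9), Prr5 (116 and 6, with 6 A forms) and Pip5k1b (108 and 4), with the Nepn site, completed the 10 with the smallest p. All but the Nepn peak held the motif, and 9 of 10 lay over 5 kb from a TSS.

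Among the promoter peaks, those after Cdh23 were at Dcun1d5 (407 and 134 tags, 4.25, 3.49 to 5.21), which lies in the chromosome 9 interval, at Gxylt1 (118 and 7, 23.6, 11.1 to 59.9), at Fhad1 (122 and 10, 17.1, 8.97 to 36.5) and 3.66 kb from Tbc1d15 (87 and 4, 30.4, 11.5 to 114). Each held at least 1 A form. The Fhad1 summit lay 4.88 kb from the nearest TSS but 14.1 kb from the nearest TSS of a protein-coding transcript. Among distal intragenic peaks, Lrriq3 (124 and 9 tags, 5 A forms) followed Ptprm, and Cntn5 (526 and 250 tags, 2.94, 2.53 to 3.44) lay in the chromosome 9 interval.

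The 10 peaks with the largest ratio among those with at least 30 Bapx1 tags all held no control tag, so the ratio is given against a floor of 3 control tags per peak. The site 258 kb from Tmprss15 held 49 Bapx1 tags, at least 22.9-fold higher than that floor, and held 1 A form. The exact 95% lower bounds were lower, 17.9 for this peak and 11.8 for the last of the 10. The sites next in order had as their nearest protein-coding gene Asap1 with 42 tags (at least 19.6-fold), Olfm3 with 41 (19.1), Zfhx3 with 39 (18.2), Cpm with 37 (17.3), Atr with 36 (16.8), Ptprg and Caln1 with 34 each (15.9), and Igfbp7 and Gm11157 with 33 each (15.4). Of these 10, 9 held the A form. The peak assigned to Igfbp7 lay 1490 kb from that gene's TSS and did not hold it, and its window repeats ccacttta.

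Summits were assigned to the protein-coding gene with the nearest TSS. Ptprd, a receptor tyrosine phosphatase of neurons whose gene spans 2271 kb, was the nearest protein-coding gene of 75 summits, 51 of them inside the gene and 57 with the motif, and the strongest held 29 Bapx1 and 5 control tags. None of them was within 5 kb of its TSS. Cntn5, a neuronal contactin, had 60 summits, but 53 of these lay in the chromosome 9 interval, as did all 30 of Dync2h1, a motor of cilia. Pcdh7 had 36, Dbc1 33, Efna5 32, Grm7 30, Cited2 28, and Lphn3 and Lpp 26 each. Lpp, a partner of the focal adhesion protein zyxin, had 23 of its 26 inside the gene. These counts depend on how much DNA lies nearest to a gene, which was not measured. The span between the outermost summits of a gene ranged among the 10 from 427 kb for Dync2h1 to 3707 kb for Pcdh7. Over these spans, whose length is set by the same summits, Dync2h1 had 7.03 summits per 100 kb and Pcdh7 0.971. Ptprd had 2.20 per 100 kb in 3405 kb, Lpp 3.33, Cited2 1.95 and Lphn3 0.821.

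Of 22225 protein-coding genes, 4677 (21.0%, 20.5 to 21.6) had a summit within 5 kb of a TSS, which is the background against which each list of genes is read. Within 1 kb the share was 9.87% and within 100 kb 79.1%, so that a summit within 100 kb says little of a gene. A summit with the motif within 5 kb was held by 2473 genes (11.1%), 1000 genes (4.50%) had 2 or more summits there, and Sgms1 had the most, 7. Genes with more TSSs or longer lists of transcripts have more DNA within 5 kb of a TSS, and the median over all genes was 10058 bp. The counts of the lists are not corrected for this, and the value is given beside the lists where it was over 1.5 times that of all genes. The lists were described by counts, and no test was run on them.

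**Figure D5:**
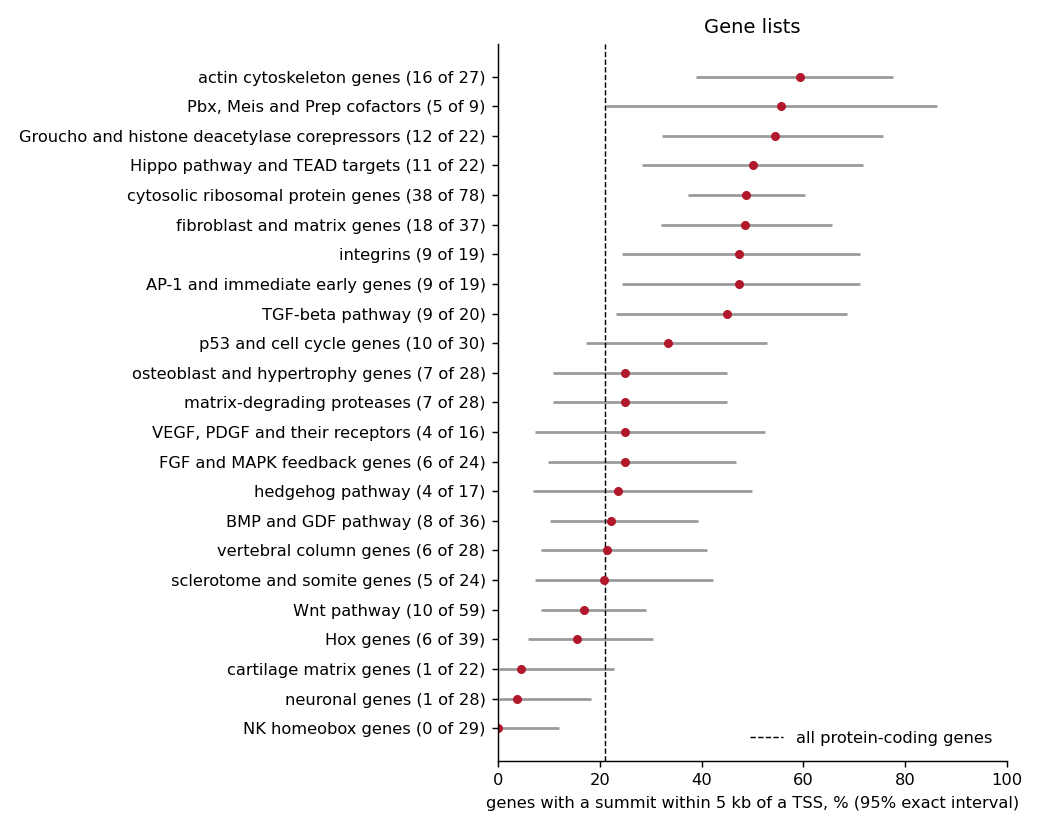
Share of the genes of each list with a Bapx1 summit within 5 kb of a TSS (points, in percent) with exact 95% intervals (lines), and the share over all 22225 protein-coding genes (broken line, 21.0%). Numbers beside each list give the genes with a summit and the genes matched; actin genes have the highest share, and cartilage matrix, neuronal and NK homeobox genes the lowest.

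Of 37 fibroblast and matrix genes, 18 (48.6%, 31.9 to 65.6) had a summit within 5 kb, 11 of them within 1 kb, and 8 had one with the motif. Cytosolic ribosomal protein genes, which every cell uses, had nearly the same share, 38 of 78 (48.7%, 37.2 to 60.3). The shares over all protein-coding genes were 21.0% within 5 kb, 9.87% within 1 kb and 11.1% with a motif summit. S100a4, which encodes a calcium-binding protein used as a fibroblast marker, held 36 Bapx1 and 13 control tags in a peak 22 bp from its TSS (chr3:90408326-90409357), a ratio of 3.87 (2.01 to 7.96). Sparc, a matrix glycoprotein that binds collagen, held 24 and 4 tags with 1 A form, a ratio of 8.39 (2.88 to 33.3). The small proteoglycan decorin gene, Dcn, held 21 and 4 tags 344 bp from its TSS, 7.35 (2.48 to 29.4). The crosslinking enzyme Loxl1 (23 and 5 tags), the collagen receptor Ddr2 (18 and 6) and fibronectin, Fn1 (18 and 5), followed. These 6 were named because their peaks held the most Bapx1 tags among the 18 genes, so their counts were high by choice. The strongest peaks of the other genes held between 9 tags (Lox) and 17 (Col1a1), where the upper quartile over all peaks was 17. Of these 6 genes the A or G form was in the peaks of Sparc and S100a4.

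Genes of the actin cytoskeleton had the highest share within 5 kb, 16 of 27 (59.3%, 38.8 to 77.6), and 7 had a motif summit. The rank did not hold within 1 kb, where 4 of 27 had a summit, against 7 of 20 TGF-beta and 11 of 37 fibroblast and matrix genes. Over all protein-coding genes, 9.87% had a summit within 1 kb and 11.1% a motif summit within 5 kb. Cfl1, the actin-severing protein cofilin, held 30 and 7 tags, Lima1 27 and 8, and the crosslinker Actn4 24 and 3 with 2 G forms. The actin genes Actg1 and Actb held 24 and 9 tags with 1 G form, and 20 and 4 with 2 A forms. Cnn2, which encodes a calponin, held 20 and 2 tags with 2 A forms and was the one of these whose peak overlapped an embryo Bapx1 peak.

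Integrins, the receptors that join the matrix to the cytoskeleton, had 9 of 19 (47.4%, 24.4 to 71.1), with a median of 20002 bp within 5 kb of a TSS. Within 1 kb, 2 of 19 had a summit, where the share over all protein-coding genes was 9.87%. Itga8 held 50 and 10 tags in an intronic peak 712 bp from its TSS (chr2:12114074-12114410), a ratio of 7 (3.51 to 15.5), with 4 A forms. Itgb7 held 43 and 7 tags with 1 G form, and Itgb3 29 and 5 with 1 A form and 5 G forms. Itgav (19 and 5), the fibronectin receptor subunit Itga5 (18 and 4) and Itgb4 (16 and 4) held neither form.

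The Hippo list, the kinase pathway that holds back Yap1 and the TEAD factors, had 11 of 22 (50%, 28.2 to 71.8), or 10 outside the chromosome 9 interval, of which Yap1 is part, and a median of 20764 bp within 5 kb of a TSS. The Yap1 peak held 788 and 546 tags, a ratio of 2.02 (1.81 to 2.26). Cyr61, a matricellular target of the pathway, held 43 and 20 tags, 3.01 (1.73 to 5.40), and the receptor kinase gene Axl 24 and 3. Amotl2 (22 and 6), Tead4 (21 and 4) and Vgll4 (21 and 7) held neither form. Of the 22 genes, 6 had a summit within 1 kb and 3 had a motif summit. Among all protein-coding genes these shares were 9.87% and 11.1%.

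The AP-1 and immediate early genes, which respond to serum within minutes, had 9 of 19 (47.4%, 24.4 to 71.1), 6 with a motif summit. A motif summit was held by 11.1% of all protein-coding genes. Within 1 kb, 2 of 19 had a summit, where the share over all protein-coding genes was 9.87%. Jun held 32 and 18 tags in a peak 31 bp from its TSS, a ratio of 2.49 (1.35 to 4.71), with 1 G form. Ier3 held 28 and 11 tags, Jund 22 and 8, Fosl2 21 and 9, Ier2 20 and 2 with 2 A forms, and Fosl1 19 and 5 with 2 G forms. The 18 control tags at Jun were the most among the peaks of these 9 genes.

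TGF-beta genes had 9 of 20 (45.0%, 23.1 to 68.5), 7 of them within 1 kb, with a median of 18730 bp within 5 kb of a TSS. Within 1 kb the share over all protein-coding genes was 9.87%. Tgif1, a homeodomain corepressor of Smad proteins, held 26 and 3 tags 45 bp from its TSS (chr17:71200671-71201338), a ratio of 12.1 (3.72 to 62.6). The latent TGF-beta binding proteins Ltbp1 (24 and 4, 1 A form) and Ltbp3 (21 and 6), the inhibitory Smad7 (18 and 2) and the ligand Tgfb3 (17 and 3) followed.

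The pathways of BMP, hedgehog and Wnt were near the background, with a median of 10062 to 10273 bp within 5 kb of a TSS. BMP genes had 8 of 36 (22.2%, 10.1 to 39.2), with the targets Id1 (23 and 6 tags) and Id3 (19 and 4), the activin antagonist Fst (21 and 1), the ligand Gdf11 (18 and 7), Smad7 and the receptor Bmpr1a (14 and 3). Hedgehog genes had 4 of 17 (23.5%, 6.81 to 49.9), the inhibitor Sufu (24 and 6), the effector Gli1 (17 and 4), the coreceptor Cdon (11 and 1) and Kif7 (10 and 1). Wnt genes had 10 of 59 (16.9%, 8.44 to 29.0), led by the secreted antagonist Frzb (24 and 6, 1 A form) and Tcf7l1 (20 and 3), then Gsk3b (19 and 6), the receptors Fzd2 (18 and 5) and Fzd6 (14 and 2), and Wnt9a (14 and 5).

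FGF and MAPK feedback genes had 6 of 24 (25%, 9.77 to 46.7), none with a motif summit, which 11.1% of all protein-coding genes had. Dusp6, the phosphatase of Erk, held 27 and 2 tags 282 bp from its TSS, a ratio of 18.9 (4.75 to 164). Spred2 held 29 and 7, Dusp5 20 and 10, Dusp1 19 and 5, Spred3 16 and 1 and Fgf2 15 and 2. Genes of VEGF, PDGF and their receptors had 4 of 16 (25%, 7.27 to 52.4), which were Nrp1, Nrp2 (18 and 6), Vegfa (17 and 5, 1 G form) and Flt1 (9 and 2).

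Pbx and Meis proteins are DNA-binding partners of homeodomain factors, and Groucho proteins and histone deacetylases are corepressors that NK factors recruit. Of 9 Pbx, Meis and Prep genes, 5 (55.6%, 21.2 to 86.3) had a summit, among them Meis2 with 22 and 6 tags, Pbx4 with 19 and 6, Meis1 with 12 and 2 and Pbx3 with 11 and 1. Of 22 Groucho and histone deacetylase genes, 12 (54.5%, 32.2 to 75.6) had one, and 8 had one with the motif. Tle1, a Groucho protein, held 24 and 10 tags, Hdac5 23 and 7, Hdac7 21 and 9, Rbbp7 17 and 0, Hdac1 16 and 5 and Ncor1 13 and 1. The cofactor genes had a median of 16957 bp and the corepressor genes 28427 bp within 5 kb of a TSS. Within 1 kb, 2 of the 9 cofactor genes and 5 of the 22 corepressor genes had a summit. The share over all protein-coding genes was 9.87% within 1 kb, and 11.1% for a motif summit within 5 kb.

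Genes of the tissue where Bapx1 works in the embryo were read against the 21.0% of all protein-coding genes with a summit within 5 kb. The intervals of the cartilage matrix list and of the sclerotome and somite list both contained that share. Of 22 cartilage matrix genes, 1 (4.55%, 0.115 to 22.8) had a summit within 5 kb, Col11a1, a fibrillar collagen of cartilage, with 11 and 1 tags and 1 A form. All 22 had one within 100 kb, where the background was 79.1%. Sclerotome and somite genes had 5 of 24 (20.8%, 7.13 to 42.2), among them Lfng (17 and 6 tags), Ripply2 (17 and 4, 1 A form), the sclerotome factor Pax9 (16 and 2, 300 bp from its TSS) and Hes7 (11 and 3).

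Osteoblast and hypertrophy genes had 7 of 28 (25%, 10.7 to 44.9), among them Mmp13 (103 and 69 tags, in the chromosome 9 interval), Mef2d (38 and 8), Atf4 (29 and 4, 2 A forms and 1 G form), Runx1 (19 and 4), Vegfa and Runx2. Matrix-degrading proteases had 7 of 28 (25%, 10.7 to 44.9), or 5 outside the chromosome 9 interval, where Mmp3 (119 and 85 tags, 1.96, 1.47 to 2.62) and Mmp13 lie. The others named were Adamts4, Plaur (16 and 6), Plat (13 and 0) and Mmp14 (10 and 0).

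Of 28 genes that the study named for the vertebral column, 6 (21.4%, 8.3 to 41) had a summit within 5 kb, about the background. Nrp1, a coreceptor of VEGF, had 3 such summits, the strongest with 22 and 6 tags and 1 G form (5.13, 2.02 to 15.5). Adamts4, an aggrecanase, held 18 and 3 tags (8.39, 2.45 to 44.5). Col1a1, the collagen of bone and fibroblasts, held 17 and 5 tags 629 bp from its TSS (chr11:94798152-94798678), 4.76 (1.68 to 16.5), with neither form.

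The osteoblast factor Runx2 held 16 and 5 tags with 1 G form (4.48, 1.57 to 15.6), the chondrogenic factor Sox5 10 and 0 with 1 A form, and Alcam 9 and 1. The other 22 had none within 5 kb, and these were Acan, Adamts2, Anpep, Chad, Col2a1, Corin, Ctgf, Ctnna2, Ctsk, Dcx, Emcn, Gata3, Gbx2, Klf5, Mmp11, Nrn1, Ntrk3, Sox6, Sox9, Uncx, Vegfc and Wwp2. Within 100 kb all but Corin and Dcx had at least 1, and Sox5 had the most, 11. No expression of NIH3T3 cells was measured, so whether any of these genes responded to the factor is not known from these data.

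The neuronal and NK homeobox lists had the lowest shares. The neuronal list was taken as a reference of genes that fibroblasts are not known to use, and no expression was measured. Of 28 neuronal genes, 1 (3.57%, 0.0904 to 18.3) had a summit within 5 kb, Slc17a6, with 11 and 1 tags and 1 A form. Of 29 NK homeobox genes other than Nkx3-2, none did, and a share of up to 11.9% lies within the interval. Within 100 kb 24 of them (82.8%) had a summit, where the background was 79.1%.

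The fibroblast and embryo lists shared 180 peaks. The overlap of lists placed at random was not computed, and the embryo list was much the shorter, so these shares alone do not tell whether the overlap was low. Of the 23203 NIH3T3 peaks, 180 (0.776%, 0.667 to 0.897) overlapped a Bapx1 peak of the E12.5 vertebral column, where the factor was tagged at its own locus and pulled down with an S-peptide antibody, and these were 6.39% (5.52 to 7.36) of the 2815 embryo peaks. The tissue, the tag, the antibody, the level of the factor and the depth all differed between these experiments and cannot be told apart. Of the 180, 114 were within 5 kb of a TSS, 69 lay in CpG-rich windows, and 45.0% held the motif. Among the 8 shared peaks with the most Bapx1 tags, the embryo libraries held an excess around the NIH3T3 summit at some only. At Mlana the NIH3T3 peak held 50 and 3 tags with 4 A forms 17.0 kb from the TSS, and the embryo libraries held 94 and 3. At Tnfrsf1a, a receptor of tumour necrosis factor, the tags were 44 and 9, and 25 and 5 in the embryo libraries. At Rab40c they were 39 and 10, and 37 and 5, and at Ift122 46 and 16, and 25 and 11. The embryo libraries held 8 and 3 tags at Zfp78 (70 and 9 in NIH3T3), and as many in the ChIP as in the control at Stk40 (6 and 6), at a U5 gene (9 and 9) and at Arhgap42 (3 and 3), which lies in the chromosome 9 interval.

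The forms of the word differed between the lists. In the embryo peaks the A form was in 15.3% (14.0 to 16.7) and the G form in 18% (16.6 to 19.4), where the NIH3T3 peaks had 57.0% and 15.1%, so the A form differed by 41.7 points (40.2 to 43.1), fibroblasts minus embryo, while the G form differed by −2.83 points (−4.37 to −1.38). Of the peaks with a motif, 76.5% held only the A form in NIH3T3 and 42.5% in the embryo, and 11.4% and 50.9% held only the G form. Over the full lists both forms thus differed, by more points in the A form. The difference in the G form depended on the threshold. Among NIH3T3 peaks at p of 1e-10 or below the G form was in 17.1% (16 to 18.1), an interval that overlaps that of the embryo peaks. The A form was in 73.2% (71.9 to 74.4) of them. Flank shares are not given for the embryo peaks.

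The regions that the study assayed with luciferase reporters in NIH3T3 cells were 7 sites, all of which overlapped an embryo peak, and their tags are given without the outcome of those assays, which was not used here. The probe of region R6 (chr1:170514460-170514495, mm9, plus strand, matches in capitals) is shown because it was the single region that overlapped an NIH3T3 peak, and that of R1 (chr15:83509195-83509230, minus strand) because it holds the A form and yet had no excess of tags.

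R6: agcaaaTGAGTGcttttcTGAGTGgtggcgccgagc
R1: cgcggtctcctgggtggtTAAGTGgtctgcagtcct

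Region R6 had a summit 5 bp away and held 17 Bapx1 and 2 control tags in 401 bp, a ratio of 11.9 (2.82 to 106). R2 at Dcaf15 held 14 and 3 tags, 6.53 (1.82 to 35.4), and R7 at Cyb5r3 13 and 2, 9.09 (2.06 to 83.0). No peak was called over either region, and the nearest summit lay 39.2 kb from R2 and 0.504 kb from R7. R3 held 5 and 1 tags, R4 1 and 3, R5 2 and 5 and R1 1 and 4, and the intervals of R1, R3, R4 and R5 contained 1. In the embryo libraries R1 held 25 and 5 tags, 4.16 (1.57 to 13.9). At these few tags the intervals of the single regions were wide.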

How the data were processed

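V5 ChIP DNA of NIH3T3 cells was sequenced as single-end reads on an Illumina Genome Analyzer II after 14 cycles of amplification, per the labels. The authors mapped reads of 35 bases to mm9, kept unique hits with at most 2 mismatches, and deposited 1 position per tag, so that tag counts could be recounted. They called peaks with MACS, and the header of the deposited peak file states a p cutoff of 1e-05, a band width of 300 and a fragment length of 124 bp. The deposited peak file also gives a score of −10log10 p, a fold enrichment and an FDR in percent, as the authors' caller wrote them. MACS compares tags within a peak with the local control, so the ratio of counts describes the list.

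From these files 1 tag per position and strand was counted in each peak, after a shift of 62 bp, and libraries were scaled by their nuclear tag totals. Total tags per library set the precision, and PCR reads without molecular identifiers are not independent molecules. Intervals are 95% and exact (Clopper-Pearson for shares, conditional binomial for ratios), and Newcombe intervals were used for differences of shares. No p-value was computed, since each condition had 1 library. TSSs and features came from GENCODE mouse release M1 on mm9, and gene symbols were matched through RefSeq synonyms by name only, which left Disp1 and Spry3 unmatched. CpG-rich windows had an observed over expected CpG ratio of at least 0.6 over 200 bp to either side of the summit. Sequences were read from the mm9 genome on both strands, with the motifs as spelled in the text. CTCF was searched by name. Words had to be in at least 100 windows. Named peaks were the 10 with the smallest p, the 5 with the smallest p per class (promoter, distal intergenic, distal intragenic) and the 10 with the largest ratio among those with at least 30 Bapx1 tags, with 0.5 added to each count. Named genes were the 10 nearest to the most summits, the 6 list members with the most tags, 28 genes that the study named by a full symbol for the vertebral column, and its 7 reporter regions. Members, lists and tests were chosen with earlier results of these data known. Alternatives for tags, windows, scaling, control, thresholds and distances were run, and some, including the high-tag intervals, the tandem repeats and the 8-base words, were added after seeing the data. Python 3.11.15 was used with numpy 2.4.6, scipy 1.17.1, pandas 2.3.3, pysam 0.24.0 and matplotlib 3.10.9. A few list members that the rule would name are not reported here. The scripts were tested on simulated data.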

Additional observations from a re-analysis of the deposited data

Results flagged for a closer look

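The exons of Nkx3-2, which were left out of the peaks, held 6.72 times (6.01 to 7.52) as many scaled Bapx1 tags as control tags, and 12974 against 430 when repeated tags were kept. The chromosome 9 interval from 6500001 to 10400000 held a control median per 100 kb of 7.37 times the genome median, in the control library. At the summits of NIH3T3 peaks that overlapped no embryo peak, the embryo Bapx1 library held 1.10 times the scaled tags of its own control within 200 bp, against 3.41 (3.20 to 3.64) at the 180 that did overlap one, where a higher value was fixed in advance because the embryo peaks were called from these embryo tags. The mitochondrial genome held 4425 Bapx1 and 3073 control tags, a scaled ratio of 2.01 (1.92 to 2.11), and the source of this excess was not tested.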

How the results depend on the processing

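The ratio of Bapx1 to control tags in peaks, 6.00, was 4.79 with repeated tags kept, 7.35 within 200 bp of the summits, 6.32 when scaled to bins without a peak, 7.71 with the embryo wildtype control, 6.07 for peaks at p of 1e-10 or below and 7.87 outside the high-tag intervals. The share of summits within 5 kb of a TSS, 25.8%, was 19.5% with TSSs of protein-coding transcripts, 22.1% at p of 1e-10 or below and 10.7% within 1 kb, and the share beyond 25 kb, 45.8%, was 57.3% with TSSs of protein-coding transcripts. The share with the motif, 64.4%, was 49.5% within 25 bp, 72.8% within 100 bp, 78.6% at p of 1e-10 or below and 50.1% around peak centres. The AP-1 excess, 2.43 times, was 4.19 times without windows that held either form. The share of genes with a summit, 21.0%, was 20.5% at an FDR of at most 5%, 9.87% within 1 kb and 79.1% within 100 kb, and of the 23 lists 20 moved by over 1.5 times at 1 kb and 23 at 100 kb. An FDR limit of 5% and leaving out the high-tag intervals kept all 23 lists within 1.5 times. The overlap with the embryo list, 180, was 145 with summits within 200 bp. Beyond what each setting changes by its construction, the cause of a shift was not tested. Windows were not split by repeat masking, since the genome used here carries no mask. No paired analysis was possible because each condition had 1 library, and for the same reason no library could be left out. A median of 13 tags a peak limits what can be said of single weak peaks.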

Other observations

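Peaks were not spread evenly over the chromosomes. Per 100000 control tags there were between 135 peaks on chromosome 14 and 245 on chromosome 10 among the autosomes, and 77.7 on X, where 247 peaks lay. Control tags per kb were 3.53 on chromosome 14, 5.56 on chromosome 10 and 1.91 on X. Chromosome 9 had 5.4 per kb and 161 peaks per 100000 control tags. The part of depth in these counts was not tested. Some peaks came in groups, and 1938 (8.35%) belonged to a chain of summits each within 2 kb of the next. There were 88 chains of 3 or more summits, and the longest held 9.

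The Hox genes, homeodomain factors that set segment identity, had 6 of 39 members with a summit within 5 kb (15.4%, 5.86 to 30.5). All 6 lay in the anterior part of the HoxA cluster on chromosome 6. Hoxa3 held 24 Bapx1 and 6 control tags, Hoxa2 22 and 4 and Hoxa4 21 and 1, while Hoxa5 and Hoxa6 shared a peak with 17 and 6. Of the 38 cytosolic ribosomal protein genes with a summit within 5 kb, 19 had one within 1 kb and 19 one with the motif. The list held 78 genes, and over all protein-coding genes these shares were 9.87% and 11.1%. Rpl13a had a peak with 48 and 13 tags, a ratio of 5.17 (2.75 to 10.4), and Rps25 (25 and 4), Rpl7l1 (24 and 6), Rps12 (23 and 4) and Rpl28 (22 and 1, 1 A form) followed. Genes of p53 and the cell cycle had 10 of 30 (33.3%, 17.3 to 52.8). Ccng1 held 26 and 13 tags, the cell cycle inhibitor Cdkn1a 21 and 8, Gadd45a 20 and 7, Gadd45g 20 and 3, Trp53 itself 18 and 9 and Ccnd3 17 and 3 with 2 A forms.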
